A study of Arabidopsis thaliana with 7 samples.

Results

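Embryo-defective (EMB) genes of Arabidopsis thaliana were followed in seedlings of the hon45 mutant and of the wild type. An EMB gene is one that mutant screens named because its loss stops or disturbs the growth of the embryo inside the seed. The genes described here are those whose short name in the deposited FPKM (fragments per kilobase of transcript, scaled to depth) tables is EMB followed by digits, in upper or lower case, and that have a row in the count table. There were 110 such genes among 32548 genes with counts. The choice left out 9 genes by identifier, 8 of them for proteins of the plastid ribosome, and as none of the 9 bears an EMB name in those tables, it removed 0 genes. The choice used names and no expression values, but the group was proposed with the comparison of hon45 and WT already known. Its counts of changed genes are therefore a description and carry no test of the group.

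Most EMB genes known at the molecular level do housekeeping work rather than patterning. Many encode proteins of the chloroplast, which a plant embryo needs as a plastid long before it can photosynthesise: aminoacyl-tRNA synthetases, pentatricopeptide repeat (PPR) proteins that bind single organellar RNAs, import machinery and chaperones. Others serve nuclear splicing, ribosome assembly, chromosome segregation or primary metabolism, and most remain active after germination. The proteins of HON4 and HON5 resemble linker histones in their globular domain, carry AT-hooks, bind DNA and shape chromatin.

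The groups were 2 RNA-seq libraries of the hon45 mutant and 2 of Col-0 WT, all from whole young seedlings 10 days after germination. Plants grew on MS agar at 22 °C in long days (16 h light and 8 h dark), and libraries were made from poly(A) RNA. The labels name no allele, cell type or tissue within the seedling, and they hold no single mutant, so HON4 and HON5 cannot be told apart. They also do not say that replicates were separate cultures, so p-values measure only the spread between these libraries, which may be technical.

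The libraries held 59639582 and 58390911 counts in hon45 and 53858439 and 63543079 counts in WT. The transcripts of both genes named in the mutant were lower in hon45: HON5 averaged 14.95 ± 1.39 CPM in hon45 and 94.7 ± 4.29 CPM in WT (SD, n = 2 each), and HON4 averaged 40.1 ± 1.302 CPM in hon45 and 102 ± 3.38 CPM in WT. CPM values here are counts brought to a common depth by library totals with TMM normalisation. Log2 fold changes are hon45 over WT and come from the edgeR quasi-likelihood test on all 29226 genes that passed the filter on low counts. A gene is said to have risen or fallen where its p, adjusted over all of these genes by the Benjamini-Hochberg method, was under 0.05.

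EMB transcripts were present in 10-day seedlings at low to middling levels. Whole seedlings mix many cell types, so fewer cells of a type and less RNA per cell cannot be told apart in any of these values. Over the 110 genes the median level per transcript length was 7.07 FPKM in hon45 and 5.40 FPKM in WT, and 103 genes in hon45 and 99 in WT averaged at least 1 FPKM. The highest was emb1303, a plastid protein needed for chloroplast development, with 119.5 and 111.3 FPKM in hon45 and 116.5 and 108.4 FPKM in WT. The libraries of the 2 genotypes overlapped for this gene. Next came EMB2360, the glutathione reductase of plastids and mitochondria, with 87.9 and 94.4 FPKM in hon45 and 83.2 and 85.7 FPKM in WT. EMB2769, a splicing factor of the CWC15 type, had 81.8 and 82.9 FPKM in hon45 and 89.6 and 89.2 FPKM in WT. EMB1467, a subunit of mitochondrial complex I, had 89.3 and 92.8 FPKM in hon45 and 79.1 and 81.4 FPKM in WT. None of these 4 genes was called, with adjusted p of 0.354 to 0.832 by the edgeR quasi-likelihood test.

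At the low end, 4 EMB genes were nearly silent in seedlings of both genotypes. EMB2743 had 14 and 5 counts in hon45 and 6 and 4 counts in WT, was listed at 0 FPKM in all 4 libraries, and was the only member that did not pass the count filter. EMB2271, a WD40 protein of ribosome biogenesis, had 66 and 31 counts in hon45 and 42 and 67 counts in WT. EMB3008, the MADS-box protein AGL81, had 35 and 24 counts in hon45 and 42 and 72 counts in WT. EMB2204 had 28 and 32 counts in hon45 and 52 and 56 counts in WT. For EMB3008 and EMB2204 both hon45 libraries lay below both WT libraries, and their log2 fold changes of −0.94 (SE 0.43) and −0.84 (SE 0.42) were the lowest of all members. With adjusted p of 0.256 and 0.303 by the edgeR quasi-likelihood test, neither was called.

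Of the 109 members tested, 14 rose in hon45, 0 fell and 95 were not called. Among all genes tested, 2.48% rose and 1.63% fell. At an unadjusted p under 0.05 the edgeR quasi-likelihood test gave 36 members higher and 2 lower, where 9.76% of all genes were higher and 8.16% lower at that threshold. DESeq2 at an adjusted p under 0.05 also gave 14 higher and 0 lower, with 2.61% and 1.1% of all genes. Counting direction alone, 84 members had a log2 fold change above 0 and 25 below 0. The median log2 fold change of the members was 0.18, with a middle range of 0.01 to 0.34, against −0.04 over all genes tested. Both hon45 libraries lay above both WT libraries for 57 members and below them for 11, where the shares among all genes were 23.1% above and 26.2% below.

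The changes were small. The 14 members that rose had fold changes of 1.29 to 1.84, only 4 of them were at least 1.5-fold higher, and 0 members were 2-fold higher. For all 14, both hon45 libraries lay above both WT libraries, in CPM and in FPKM. The 14 were picked by a small adjusted p in these same libraries. This separation was therefore nearly given and is no separate support.

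**Figure D1:**
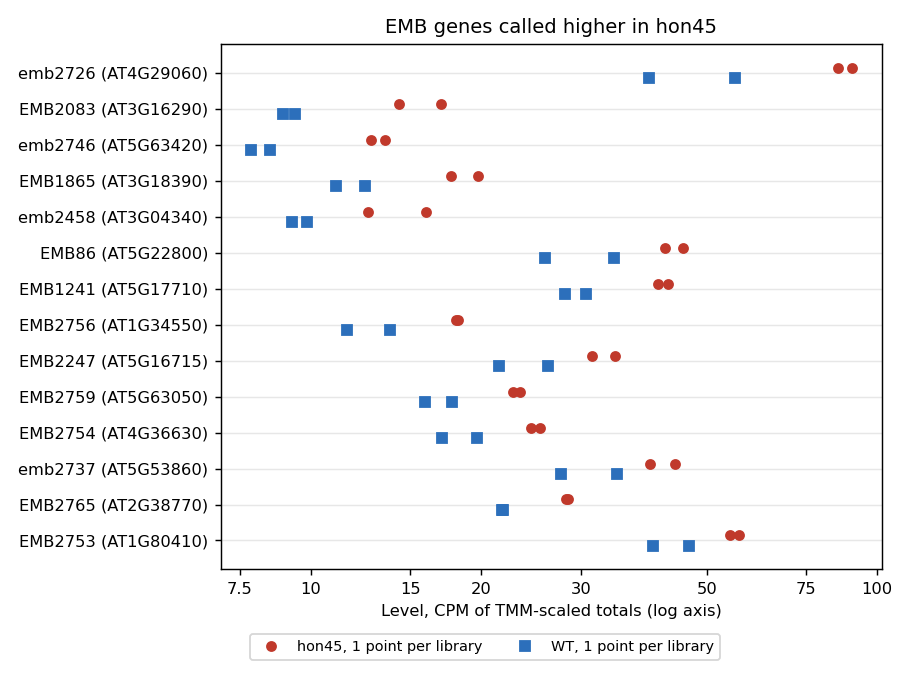
Levels of the 14 EMB genes that rose in hon45, in CPM on a log axis, with 1 point per library (circles hon45, squares WT) and genes ordered by fold change. In every gene both hon45 points lie to the right of both WT points, a pattern that choosing genes by a small p favours. The fold changes run from 1.84 at the top to 1.29 at the bottom.

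The largest rise was that of a single gene of plastid protein synthesis. The gene emb2726 (AT4G29060; TAIR10 chromosome 4, 14317256 to 14321567) encodes elongation factor Ts of the plastid, which reloads EF-Tu during translation. It had 85.2 and 90.3 CPM in hon45, against 39.5 and 56.0 CPM in WT. The hon45 libraries were close together and the WT libraries far apart, with WT replicate 1 the lowest. The log2 fold change was 0.88 ± 0.13 SE, with an edgeR quasi-likelihood adjusted p = 0.000597. Of the 8 members in translation and ribosome biogenesis it was the only one called. The other 7 ranged from −0.16 to 0.43, and EMB1401, the beta subunit of initiation factor eIF2, had 67.9 and 69.5 CPM in hon45 and 72.01 and 71.6 CPM in WT.

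Aminoacyl-tRNA synthetases, the enzymes that charge tRNAs with amino acids, were all above 0 in log2 fold change. Of the 6, 2 rose, where 2.48% of all genes rose. EMB86, an alanyl-tRNA synthetase (AT5G22800; chromosome 5, 7616073 to 7619981), had 42.3 and 45.4 CPM in hon45 and 26.0 and 34.3 CPM in WT. Its log2 fold change was 0.54 ± 0.12 SE, with an edgeR quasi-likelihood adjusted p = 0.0140. EMB2247, a valyl-tRNA synthetase (AT5G16715; chromosome 5, 5485353 to 5493520), had 31.4 and 34.5 CPM in hon45 and 21.5 and 26.3 CPM in WT, a log2 fold change of 0.46 ± 0.11 SE, with an adjusted p = 0.0249 in that test. In both genes WT replicate 1 was the lowest library. The threonyl, leucyl and tyrosyl enzymes EMB2761, EMB2369 and emb2768 had log2 fold changes of 0.37, 0.53 and 0.36 without a call. The lowest of the class was the arginyl enzyme emb1027 at 0.13, whose 56.9 and 62.4 CPM in hon45 overlapped 50.6 and 58.8 CPM in WT. The class median was 0.42.

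Chaperones, import and proteolysis gave 3 rises among 6 members, where 2.48% of all genes rose. The class median was 0.44, with all 6 above 0. EMB2083 (AT3G16290; chromosome 3, 5521071 to 5524995) is FTSHI2, a proteolytically inactive FtsH-like protein of the chloroplast envelope that belongs to a motor of protein import. It had 17.01 and 14.3 CPM in hon45 and 8.92 and 9.38 CPM in WT, a log2 fold change of 0.78 ± 0.13 SE, with an edgeR quasi-likelihood adjusted p = 0.00225. Its relative emb2458 (AT3G04340; chromosome 3, 1146800 to 1153341), FTSHI5, had 15.99 and 12.7 CPM in hon45 and 9.87 and 9.25 CPM in WT, a log2 fold change of 0.58 ± 0.14 SE, with an adjusted p = 0.0189 in that test. In these 2 genes the WT libraries were nearly equal and hon45 replicate 1 was the highest. EMB1241 (AT5G17710; chromosome 5, 5839343 to 5841728), the GrpE-type partner of the chloroplast Hsp70, had 41.1 and 42.8 CPM in hon45 and 28.1 and 30.6 CPM in WT, a log2 fold change of 0.51 ± 0.10 SE, with an adjusted p = 0.00663 in that test. The members not called were emb2410 (TIC236, which links the outer and inner translocons of the envelope) at 0.37, with an adjusted p of 0.0586 the closest member outside the threshold, EMB2454 (BRUTUS, a ubiquitin ligase of iron responses) at 0.29 and emb2734 (KETCH1, an importin) at 0.08.

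Among 17 members that splice, process or export RNA, 3 rose, where 2.48% of all genes rose. Both of the larger rises act in organelles. EMB1865 (AT3G18390; chromosome 3, 6313485 to 6317971), a CRM-domain protein of the type that splices organellar introns, had 19.8 and 17.7 CPM in hon45 and 11.1 and 12.5 CPM in WT, a log2 fold change of 0.67 ± 0.12 SE, with an edgeR quasi-likelihood adjusted p = 0.00383. The plastid ribonuclease RNase J, emb2746 (AT5G63420; chromosome 5, 25400386 to 25405968), had 12.8 and 13.5 CPM in hon45 and 8.48 and 7.84 CPM in WT, a log2 fold change of 0.69 ± 0.13 SE, with an adjusted p = 0.00509 in that test. The third was nuclear: EMB2765 (AT2G38770; chromosome 2, 16202963 to 16210338), an intron-binding helicase of the Aquarius type, had 28.5 and 28.2 CPM in hon45 and 21.7 and 21.9 CPM in WT, a log2 fold change of 0.38 ± 0.10 SE, with an adjusted p = 0.0418 in that test. Other spliceosomal members were not called. The PRP16-type helicase EMB3011 stood at 0.35 ± 0.11 SE (adjusted p = 0.0721 in that test), and emb1507 (BRR2) stood at 0.22. Nearer 0 were, among others, the tri-snRNP factor emb1220 (PRP31) at 0.07, the U2 subunit emb2444 at −0.01 and EMB140 at 0.00. The class median was 0.16.

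PPR and other helical repeat proteins were the largest class of known role, with 20 members. Of these, 0 rose or fell, where 2.48% of all genes rose and 1.63% fell. Their median level was low, 2.34 FPKM in hon45 and 2.09 FPKM in WT, where a small change is harder to call. The log2 fold changes of the class ran from −0.51 to 0.58 around a median of 0.18, with 16 above 0. The highest was the PPR protein EMB2453 (PPR5) at 0.58 ± 0.18 SE, with an edgeR quasi-likelihood adjusted p = 0.084. EMB2750 (the PPR protein PPR2) had 12.8 and 13.4 CPM in hon45 and 9.02 and 10.4 CPM in WT, a log2 fold change of 0.43 ± 0.13 SE, with an edgeR quasi-likelihood adjusted p = 0.0639. EMB2654 had 20.6 and 21.4 CPM in hon45, within the 18.7 and 23.0 CPM of WT, and a log2 fold change of 0.01. The lowest was EMB2219, a mitochondrial-terminator-like protein, at −0.51 (adjusted p = 0.177 by the same test).

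Metabolic members had a class median of 0.07, and 0 of 11 were called, with 7 above 0 and 4 below. EMB9, the dihydrofolate synthase of folate synthesis, was the highest: 7.53 and 8.66 CPM in hon45 and 7.17 and 6.43 CPM in WT, a log2 fold change of 0.25. EMB1793, a LYR-motif protein of complex I assembly, was the lowest at −0.23, with 7.98 and 7.80 CPM in hon45 and 9.24 and 9.22 CPM in WT. Chorismate synthase (EMB1144), the shikimate enzyme EMB3004 and the pentose phosphate enzyme EMB2024 had log2 fold changes of 0.22, 0.00 and −0.05. This class had the highest class median of level per transcript length, 36.9 FPKM in hon45 and 37.2 FPKM in WT.

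Chromosome proteins gave 0 calls among 4 members. EMB2773, the cohesin loader SCC2, had 12.4 and 11.5 CPM in hon45 and 9.33 and 8.15 CPM in WT, a log2 fold change of 0.45 (SE 0.13) outside the threshold at an adjusted p of 0.0616 by the edgeR quasi-likelihood test. The condensin subunit CAP-G (EMB2656) stood at 0.20 and the SMC5/6 subunit NSE1 (emb1379) at −0.05. The helicase emb2411, related to yeast Dna2, stood at −0.19 with 75.4 and 83.6 CPM in hon45 and 101 and 80.4 CPM in WT. Its span overlaps by 211 bases that of CSD1, a superoxide dismutase gene with 34391 and 34903 counts in hon45 and 40903 and 38508 counts in WT. Per transcript length emb2411 was at only 0.62 and 0.58 FPKM in hon45 and 0.58 and 0.55 FPKM in WT, so its count value is uncertain.

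Of 3 members in membrane traffic and the cytoskeleton, EMB2754 (AT4G36630; chromosome 4, 17271819 to 17276616), the VPS39 subunit of vacuolar fusion, rose. It had 24.5 and 25.5 CPM in hon45 and 17.1 and 19.6 CPM in WT, a log2 fold change of 0.44 ± 0.11 SE, with an edgeR quasi-likelihood adjusted p = 0.0274. The 3 members in transcription and chromatin had 0 calls and were EMB1135 (FORGETTER1) at 0.32, the bHLH protein EMB1444 at 0.25 and EMB3008, given above.

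The remaining 32 members have other roles or none assigned here, and 4 of the 31 tested rose, where 2.48% of all genes rose. EMB2753 encodes the auxiliary subunit of the acetyltransferase NatA, which modifies the N-termini of new proteins. It had 54.98 and 57.1 CPM in hon45 and 40.3 and 46.5 CPM in WT, a log2 fold change of 0.37 ± 0.10 SE, with an edgeR quasi-likelihood adjusted p = 0.0450, the value closest inside the threshold. EMB2756 (AT1G34550; chromosome 1, 12646696 to 12652646) had 18.2 and 18.1 CPM in hon45 and 11.6 and 13.8 CPM in WT, a log2 fold change of 0.51 ± 0.12 SE, with an adjusted p = 0.0214 in that test. EMB2759 had 22.7 and 23.4 CPM in hon45 and 15.9 and 17.8 CPM in WT, a log2 fold change of 0.45 ± 0.11 SE, with an adjusted p = 0.0249 in that test. The gene emb2737 had 39.8 and 44.0 CPM in hon45 and 27.7 and 34.8 CPM in WT, a log2 fold change of 0.42 ± 0.11 SE, with an adjusted p = 0.0405 in that test. WT replicate 1 was the lowest library in all 4. EMB2753, EMB2759 and emb2737 share part of their span with a neighbouring gene, and how reads in a shared stretch were assigned is unstated, so these 3 values are uncertain. In all, 39 of the 109 tested members overlap another gene.

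**Figure D2:**
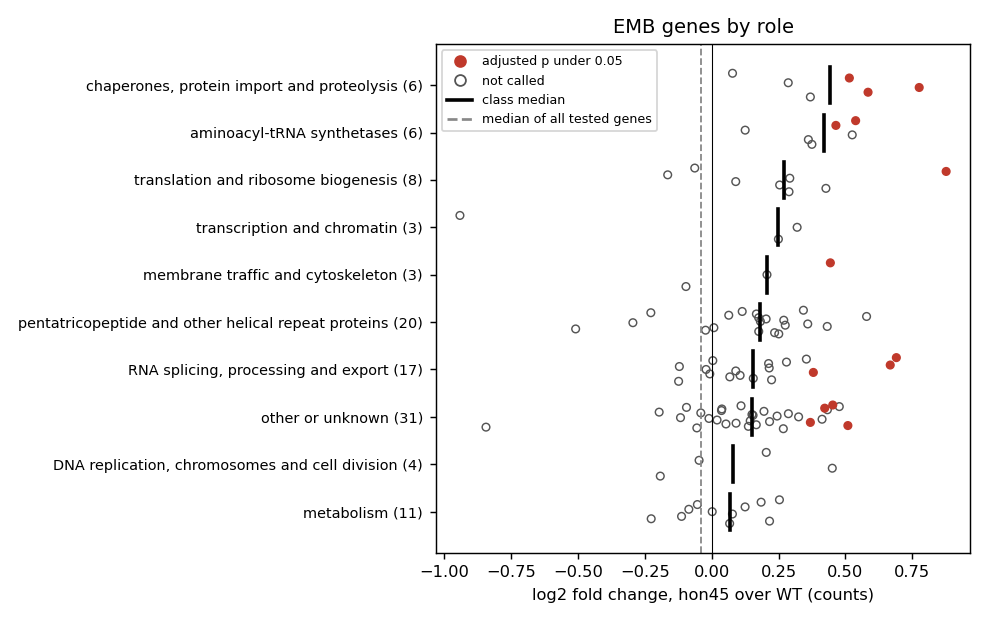
Log2 fold changes, hon45 over WT, of the 109 tested EMB genes by role class, with filled points for genes with an adjusted p under 0.05, a bar for each class median and a dashed line at the median of all tested genes, −0.04. Class medians as fitted run from 0.44 for chaperones, import and proteolysis to 0.07 for metabolism, and all 14 filled points lie above 0.

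EMB names cover only some subunits of a complex, so partners without such a short name were set beside the members, chosen by known assembly. All 5 FtsH-type proteins of the FtsHi import motor rose, where 2.48% of all genes tested rose. Besides FTSHI2 and FTSHI5, FTSHI4 had 14.1 and 12.2 CPM in hon45 and 7.21 and 8.39 CPM in WT, a log2 fold change of 0.75 ± 0.14 SE, with an edgeR quasi-likelihood adjusted p = 0.00414. FTSH12, the subunit with an intact protease site, had 27.7 and 28.6 CPM in hon45 and 19.0 and 19.9 CPM in WT, a log2 fold change of 0.53 ± 0.10 SE, with an adjusted p = 0.00667 in that test. FTSHI1 had 27.9 and 30.9 CPM in hon45 and 19.7 and 24.1 CPM in WT, a log2 fold change of 0.42 ± 0.11 SE, with an adjusted p = 0.0427 in that test. In none of the 5 did the libraries of the genotypes overlap. Among all genes tested, both hon45 libraries lay above both WT libraries for 23.1%. With the length trend of genes from 5 CPM removed, FTSHI1 and FTSHI5 were no longer called (adjusted p = 0.160 and 0.119 in that edgeR fit), and with the trend from 1 CPM FTSHI1 was not. Of the 5, 1 was called without hon45 replicate 1, 2 without hon45 replicate 2, 4 without WT replicate 1 and 0 on FPKM.

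Other assemblies gave no calls. The m6A writer, which methylates adenosines in mRNA, had log2 fold changes of 0.21 for EMB1691 (MTB), 0.21 for EMB2016 (VIRILIZER), 0.16 for MTA and 0.04 for FIP37, and 0 of the 4 was called. With the 5 CPM length trend removed these were 0.05, −0.01, 0.04 and 0.03, and with the 1 CPM trend removed 0.23, 0.29, 0.15 and 0.05. Of the plastid ankyrin proteins EMB506 and AKRP, which bind each other, EMB506 had 5.98 and 5.56 CPM in hon45 and 3.99 and 4.54 CPM in WT, a log2 fold change of 0.43 (adjusted p = 0.186 in the edgeR quasi-likelihood test). AKRP had 41.9 and 43.6 CPM in hon45 and 42.8 and 42.2 CPM in WT, a log2 fold change of 0.01. This turned to −0.03 with the 5 CPM trend removed and −0.01 with the 1 CPM trend removed. The difference between the pair was not tested. In the U5 snRNP of the spliceosome, emb1507 (BRR2) stood at 0.22 and its partner PRP8 at 0.35 (adjusted p = 0.0577 by the same test). CAP-H of condensin stood at 0.22 and SMC5 at 0.21.

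**Figure D3:**
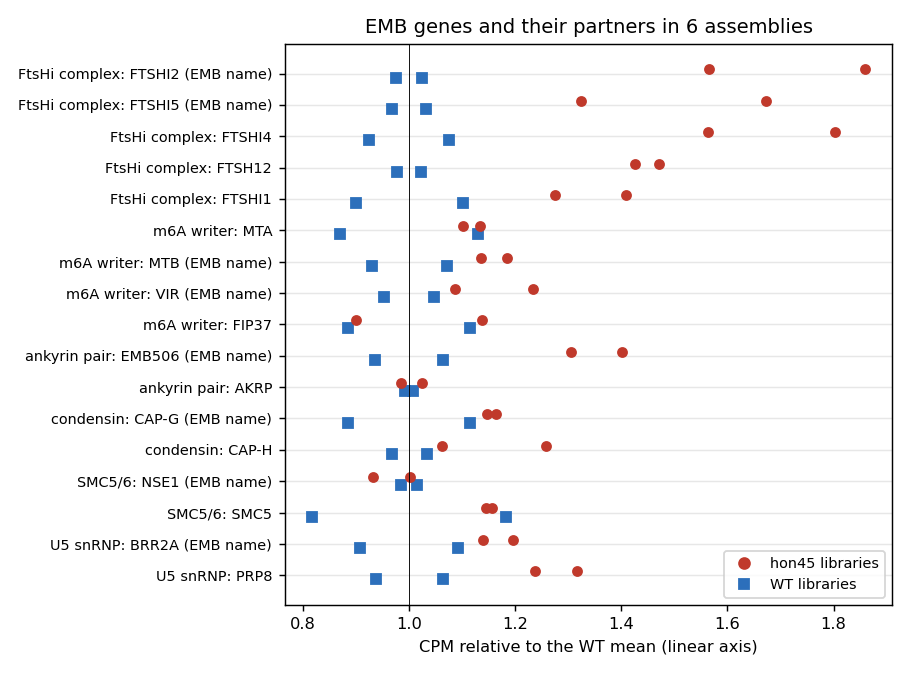
CPM of EMB genes and their partners in 6 assemblies, each divided by the mean of the 2 WT libraries (circles hon45, squares WT, 1 point per library). The 5 FtsHi rows have every hon45 point to the right of every WT point. So do MTB, VIR, EMB506, CAP-G, CAP-H, BRR2A and PRP8, while MTA, FIP37, AKRP, NSE1 and SMC5 overlap.

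Besides the members, 137 genes carry an EMB symbol or synonym in the RefSeq gene table but another short name in the FPKM tables. They include the partners FTSHI4, FTSH12, MTA, AKRP, CAP-H, SMC5 and PRP8 given above. They also include GN, DCL1, YDA and LEC1, which are counted again in the lists of embryo genes below. Of the 137, 16 rose and 0 fell, where 2.48% of all genes rose and 1.63% fell. In the same set 91 were above 0, and the median log2 fold change was 0.11. With the 5 CPM length trend removed, RH47, GN, DEK1, CR88, DEGP2, NRPB2, OBGL and NUP205 were no longer called. Their adjusted p was 0.0566 to 0.335 in that edgeR fit, where RPL10 (EMB3136) came under the threshold at 0.0493. With the 1 CPM trend removed, GN and DEK1 were called (adjusted p = 0.0278 and 0.0483 in that edgeR fit). RH47, CR88, DEGP2, NRPB2, OBGL, NUP205 and RPL10 were not, at 0.0510 to 0.0728 in the same fit. The smallest p belonged to TIC100 (emb1211), a component of the inner envelope translocon, with 22.5 and 25.9 CPM in hon45 and 11.95 and 15.9 CPM in WT, a log2 fold change of 0.79 ± 0.13 SE, with an edgeR quasi-likelihood adjusted p = 0.00216. ISE2 (EMB25), a chloroplast RNA helicase, had 17.4 and 19.7 CPM in hon45 and 10.8 and 12.3 CPM in WT, a log2 fold change of 0.68 ± 0.12 SE, with an adjusted p = 0.00378 in that test. AT1G10910 (EMB3103) had 13.4 and 14.7 CPM in hon45 and 8.28 and 9.001 CPM in WT, a log2 fold change of 0.70 ± 0.13 SE, with an adjusted p = 0.00408 in that test. FTSHI4, described above, was the fourth (EMB3144). Of the 9 genes left out by identifier, 2 rose, 0 fell and 8 were above 0.

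The libraries of each genotype did not contribute equally. Relative to its mean over the 4 libraries, the median member lay 0.09 and 0.08 log2 units higher in hon45 replicates 1 and 2, and it lay at −0.11 in WT replicate 1 and −0.05 in WT replicate 2. WT replicate 1 held the lowest value of 55 members, against 29 for WT replicate 2. Each hon45 library was above each WT library for most members, from 77 of 109 (hon45 replicate 2 over WT replicate 1) to 83 of 109 (hon45 replicate 1 over WT replicate 1). Over all tested genes the hon45 library was the higher for 42.65% and 50.22% in the same 2 pairs.

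**Figure D4:**
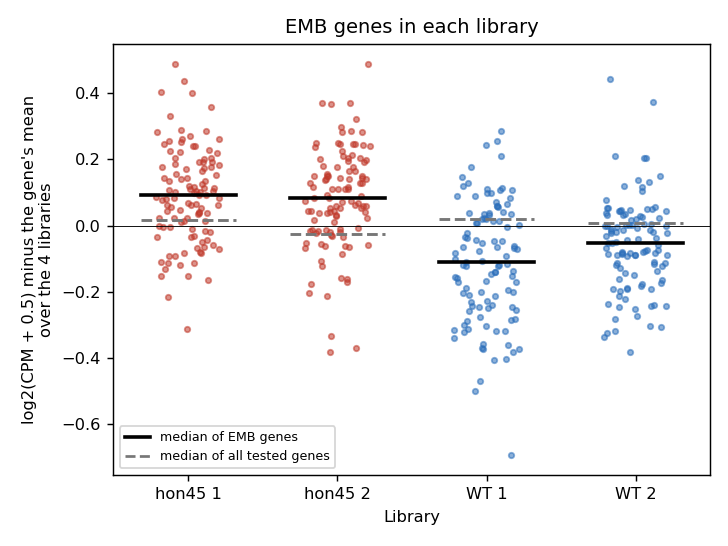
Deviation of each of the 109 tested EMB genes from its own mean over the 4 libraries, as log2(CPM + 0.5), with a solid bar at the median of these genes and a dashed bar at the median of all tested genes. The EMB medians are 0.09 and 0.08 in the hon45 libraries, −0.11 in WT 1 and −0.05 in WT 2.

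The count of rises depended on which library was left out. It was 3 without hon45 replicate 1 and 3 without hon45 replicate 2, where 0.615% and 0.122% of all genes rose. It was 11 without WT replicate 1 and 28 without WT replicate 2, where 1.97% and 7.46% of all genes rose. Only emb2726 and EMB2083 were called in all 4 of these fits. Without hon45 replicate 1 the third was emb2746, and without hon45 replicate 2 it was EMB1865. On FPKM values with limma, 0 members were called, where 0.205% of all genes rose and 0.416% fell, and the smallest adjusted p of a member was 0.0576. At an unadjusted p under 0.05 in the limma fit, 31 members were higher and 1 lower, where 13.1% of all genes were higher and 9.63% lower. Directions on FPKM and on counts were the same for 101 of 109 members.

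Longer EMB genes had higher fold changes. The transcript length that counts and FPKM together imply had a median of 1970 bases over members, against 1383 bases over all protein-coding genes tested, and it was 2696 bases for members that rose and 1798 bases for those not called. For 102 members this length was no longer than the gene's RefSeq span. Divided by length into groups of 34, the members had median log2 fold changes of 0.07 (short), 0.14 (middle) and 0.28 (long), with 3, 2 and 9 rises. All protein-coding genes in the same length ranges had medians of −0.05, 0.03 and 0.00, and 1.62%, 3.27% and 5.43% of them rose. Across members, Spearman's rho between length and log2 fold change was 0.43, as a description, because genes share their libraries.

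With a length trend removed from each library the calls among members fell in number. When the trend was fitted on genes averaging 5 CPM or more, 7 members rose, where 1.70% of all genes rose, and the median log2 fold change was 0.05. The members that rose were emb2726, EMB2083, EMB1865, emb2746, EMB1241, EMB2759 and emb2737. Class medians with this trend removed were 0.30 for aminoacyl-tRNA synthetases, 0.26 for chaperones, import and proteolysis and 0.22 for translation, and between −0.05 and 0.06 for the other 7 classes, with RNA processing and metabolism at 0.01 each and chromosome proteins at −0.05. Of the 109 members, 13 turned from above to below 0 and 2 the other way, none of them among the 14 that rose. When it was fitted on genes of at least 1 CPM, 9 members rose, where 1.89% of all genes rose, the median was 0.19, and 1 member turned from above to below 0 and 3 the other way. These were the first 5 of the 7 with EMB86, emb2458, EMB2756 and EMB2759. Class medians with this second trend removed were 0.49 for chaperones, import and proteolysis, 0.42 for aminoacyl-tRNA synthetases and 0.27 for translation. The other 7 classes ran from 0.04 for metabolism to 0.33 for transcription and chromatin, with RNA processing at 0.22 and PPR proteins at 0.18. Class medians therefore depended on the genes used to fit the trend. EMB2247, EMB2754, EMB2765 and EMB2753 were called with neither trend, at adjusted p of 0.115 to 0.2995 with the first and 0.0558 to 0.0918 with the second, by the edgeR quasi-likelihood test.

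**Figure D5:**
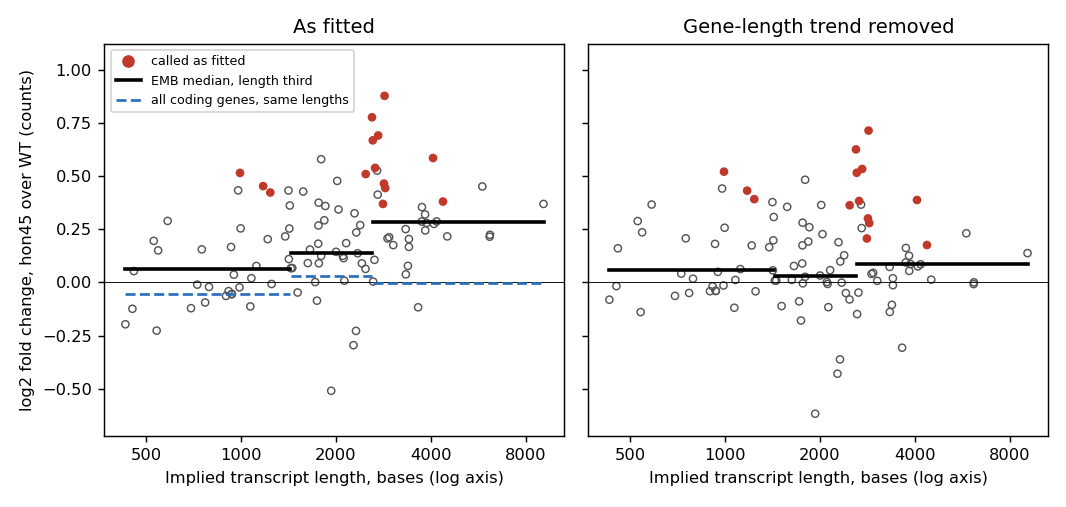
Log2 fold change, hon45 over WT, against implied transcript length (log axis) for 102 EMB genes. The left panel is as fitted, and the right panel follows removal of a length trend fitted on genes of at least 5 CPM. Filled points are the 14 genes called as fitted, and bars lie at the median of each group of 34. Dashed lines, in the left panel only, lie at the medians of all coding genes of the same lengths. The long group's bar lies at 0.28 on the left and 0.09 on the right.

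Markers of organs and cell states were measured in the same libraries. Of 16 leaf markers, 0 were called and 15 were above 0, and their summed level was 77420 and 80420 CPM in hon45 and 64340 and 76050 CPM in WT. Of 17 root markers, 5 fell and 0 rose, with sums of 333 and 345 CPM in hon45 and 467 and 416 CPM in WT. They were EXP7, EXP18 and PRP3 of root hairs, CASP1 of the endodermis and the aquaporin gene TIP2;3, with log2 fold changes of −0.61 to −0.47. The lowest leaf sum was that of WT replicate 1, the library that was lowest for 55 of the 109 EMB genes. Of 16 markers of dividing cells, 0 rose and 1 fell, with sums of 140 and 134 CPM in hon45 and 133 and 137 CPM in WT. The one that fell was AUR2, an Aurora kinase, at −0.88. No marker of these lists lacked counts in all 4 libraries. The part of organ makeup in the EMB values was not tested.

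Genes of the embryo itself were followed in 3 lists. Of 12 seed storage and late embryo genes, 0 rose and 1 fell, and their sum was only 7.73 and 7.15 CPM in hon45 and 10.1 and 10.2 CPM in WT. The one that fell was EM6, a late embryogenesis gene, at −1.27. Of 10 embryo transcription factor genes, 0 were called and 2 were above 0, with sums of 14.2 and 9.13 CPM in hon45 and 14.4 and 13.04 CPM in WT. Of 13 genes of embryo patterning, 3 rose and 0 fell, where 2.48% of all genes rose. Their sums were 369 and 381 CPM in hon45 and 301 and 315 CPM in WT. GN, a regulator of vesicle traffic, stood at 0.47, and the epidermal factors ATML1 and PDF2 stood at 0.42 and 0.45.

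The members lie on all 5 chromosomes, with 24, 19, 22, 17 and 28 genes on chromosomes 1 to 5. The numbers that rose were 2, 1, 3, 2 and 6 in the same order. Every chromosome had a member median above 0, from 0.09 on chromosome 2 to 0.28 on chromosome 3, while the medians of all genes lay between −0.05 and −0.03.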

How the data were processed

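The authors deposited raw, whole-number counts per gene for 4 RNA-seq libraries and, per the file headers, FPKM values with a locus per gene, 1 file per library. The submitters' processing notes name the TAIR10 build and the tools deepTools, edgeR, Bowtie2 and HISAT2 without saying what each did. The counting program, its annotation, its use of strand and the FPKM program are unstated (not given in the sources used here), and the 3 ChIP samples are not analysed here.

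Counts were filtered with filterByExpr, scaled by TMM and compared with the edgeR 4.0.16 quasi-likelihood test in R 4.3.3, with genotype as the only term, 2 residual degrees of freedom and Benjamini-Hochberg adjustment over all tested genes. The script was tested on simulated data. CPM values are given with SD and n, and SE is the log2 fold change over the root of the F statistic. Depth bounds low genes most: a handful of counts separates the libraries of the weakest members. Alternatives were RLE factors, library totals, other count filters (none, or 5 CPM in 2 libraries), DESeq2 1.42.0, limma 3.58.1 (voom), each library left out in turn, the replicate number as a block, an adjusted p under 0.01, overlapping genes left out, a length trend removed (spline with 4 degrees of freedom, 10048 genes of at least 5 CPM or 14676 of at least 1 CPM), and limma on log2(FPKM + 1) where 2 libraries reached 1 FPKM, also with 0.1 as the pseudocount and unfiltered. Fold changes on that scale understate those of low genes. The older quasi-likelihood method was added after seeing the data. Implied length is the length that counts and FPKM give together, a median over those libraries where a gene had 10 counts and 0.1 FPKM or more.

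Members, roles, partners and marker lists were chosen with earlier results of these data known. Roles come from textbook knowledge. Named are called members, the 4 highest and 4 lowest by FPKM, the extremes of each class with at least 4 tested members among genes of at least 5 CPM, untested members, and the 4 other EMB loci with the smallest p. Other genes were named after their values were seen. RefSeq (TAIR10.1) gave symbols, synonyms and overlaps for all 32548 genes. Coordinates are those of the FPKM files with 1 added to the start. Promoter and protein sequences were not used here.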

Additional observations from a re-analysis of the deposited data

How the results depend on the processing

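The count of members that rose (14) stayed within 1.5-fold under RLE factors, library totals, no count filter, DESeq2, limma-voom, the older quasi-likelihood method and without overlapping genes, at 12 to 20. In that order, 3.58%, 1.83%, 2.5%, 2.61%, 2.79%, 2.37% and 3.2% of all genes rose, against 2.48% as reported. It was 7 under the stricter count filter, which kept 84 members, 5 at an adjusted p under 0.01, 7 and 9 with the length trend of genes from 5 and from 1 CPM removed, 8 with the replicate block and the 5 CPM length trend together, and 0 in each of the 3 FPKM fits. In that order, 2.19%, 0.599%, 1.7%, 1.89% and 2.72% of all genes rose. On FPKM it was 0.205%, 0.185% with 0.1 as the pseudocount and 0.00643% unfiltered. Leaving out 1 library gave 3 to 28 members that rose and 0 to 1 that fell, the 1 being without WT replicate 2; in these fits the lone library of a genotype is assumed to vary like the other genotype. The median log2 fold change of members (0.18) was 0.0544 with the 5 CPM length trend removed, 0.0531 with the block added, and 0.13 to 0.22 with 1 library left out. The cause of these shifts was not tested. Over all genes the calls were 724 higher and 475 lower, against 764 and 322 with DESeq2, 441 and 543 with the 5 CPM length trend removed, 490 and 244 with the 1 CPM trend, 345 and 379 under the stricter filter, 811 and 412 with no filter, 40 and 81 on FPKM, and 184 and 251, 37 and 82, 592 and 340, and 2229 and 1607 without hon45 replicate 1, hon45 replicate 2, WT replicate 1 and WT replicate 2. Scaling moved the median of all genes by under 0.1. Of the genes named by rule, EMB2654 turned to −0.0026 with library totals, −0.0265 under the stricter filter, −0.13 to 0.17 with 1 library left out, −0.12 with the 5 CPM length trend removed and −0.11 with the block added to it. The gene emb2734 turned to −0.11 in the last 2 of these fits, emb1303 to −0.0029 without WT replicate 2 (−0.0029 to 0.11 over the 4 fits), emb2411 to 0.0279 on unfiltered FPKM, and EMB2271 ran from −0.73 to 0.25 with 1 library left out, above 0 without WT replicate 2 or hon45 replicate 2. None of these 5 was called as reported. Deviations of same-numbered libraries had a correlation of 0.06 over 15592 genes, so the replicate numbers are not shown to pair the samples; with the replicate block 19 members rose and 0 fell, and over all genes 1119 rose and 648 fell. With 53858439 to 63543079 counts per library, depth limits the weakest members most, such as EMB2743, but not only these. EMB2453, with 204 to 337 counts per library, had an SE of 0.18, and EMB2753, with 2179 to 3322 counts, an SE of 0.10.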

Other observations

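For 6 members the length implied by counts and FPKM together exceeds both the RefSeq span of the gene and its locus in the FPKM tables. For emb2411 it is 144500 bases, against a span of 9751 bases and a locus of 11409 bases. For EMB1444 it is 9333 bases, against 4742 and 6704 bases. The others are EMB975, EMB2204, EMB2271 and EMB3008, of which the last 3 rest on 24 to 72 counts per library, so their implied lengths are imprecise. The cause was not tested.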
